A study of Homo sapiens with 43 samples.

Results

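The genes described here are 45 genes whose products the liver secretes into plasma or, for FABP1, keeps inside the hepatocyte as a fatty acid carrier. They were picked by symbol and matched through their Ensembl identifiers, and all 45 were found among the 58780 Ensembl genes of each library. They comprised 12 carriers and other circulating proteins, 12 fibrinogen chains and clotting factors, 3 anticoagulant or fibrinolytic proteins, 14 protease inhibitors and 4 genes for complement and vitronectin. The tested cells were HepG2, an established hepatocellular carcinoma line that still makes many plasma proteins, cultured for 24 h with 10 µM BRM014 in DMSO (2 libraries), and their controls were HepG2 cultured for 24 h with DMSO alone (2 libraries). BRM014 inhibits the ATPases SMARCA4 and SMARCA2, the motors of the BAF chromatin remodelling complexes. The series also holds 39 libraries of GM12878, an Epstein-Barr virus transformed B lymphoblastoid line. Of these, 24 came from cells given 10 µM BRM014 or DMSO for 30 min and then 100 ng/mL interferon gamma (IFNg), 500 nM dexamethasone (Dex) or vehicle for 1 or 6 h. The other 15 came from a panel of single stimuli applied for 6 h (IFNg, Dex, interleukin 2, tumor necrosis factor alpha, lipopolysaccharide or doxorubicin) with DMSO and PBS controls. Each group had 2 libraries except doxorubicin, with 1. The labels do not say whether libraries of a group came from separate cultures, so the p-values measure the spread between these libraries, which may be technical.

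Hepatocytes secrete most of the proteins of blood plasma: albumin and other carriers, the clotting cascade that ends when thrombin cuts fibrinogen, the serpins and other inhibitors that keep proteases in check, and much of complement. Transcription of these genes rests on liver-enriched factors such as HNF1, HNF4A, FOXA and C/EBP proteins. Several of them, fibrinogen, haptoglobin, orosomucoid and alpha-1-antichymotrypsin among them, are acute phase genes that interleukin 6 raises through STAT3.

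Total expected counts were 19.9 M and 3.06 M in the BRM014 libraries, against 9.79 M and 17.02 M in the DMSO libraries, so the second BRM014 library was the shallowest. Mitochondrial genes held 4.01% and 4.52% of counts with BRM014, against 6.06% and 4.66% with DMSO. RNA of the drug's targets was measured at 240.1 and 247 CPM (counts relative to TMM-scaled library size) for SMARCA4 with BRM014, against 165 and 164 CPM with DMSO, and at 37.5 and 30.1 CPM for SMARCA2 with BRM014, against 50.7 and 53.8 CPM with DMSO; these levels do not check inhibition of an enzyme. In the cell type check, all 8 hepatocyte markers were detected in every HepG2 library. Of these, 8 of 8 fell with BRM014, beside 22.8% of all genes tested. The falls differed in size, as in HNF4A (log2 fold change -1.62 ± 0.094) and APOA1 (-2.25 ± 0.10), against KRT18 (-0.40 ± 0.088), FOXA2 (-0.34 ± 0.11) and KRT8 (-0.30 ± 0.089). The summed level of 6 B cell markers was 0.193 and 0.941 CPM with BRM014, against 1.71 and 1.34 CPM with DMSO, with MS4A1, PAX5 and PTPRC at 0 in all 4 libraries. Endothelial markers (4 genes) summed to 2.90 and 3.14 CPM with BRM014, against 9.09 and 10.99 CPM with DMSO, with STAB2 at 0, and macrophage markers (4 genes) to 0.677 and 0.941 CPM, against 1.71 and 1.95 CPM with DMSO, with CD163 and MARCO at 0. Cholangiocyte markers (4 genes) summed to 149 and 173 CPM with BRM014, against 505 and 533 CPM with DMSO, with KRT7 and CFTR at 0. Stellate cell markers (4 genes) summed to 87.2 and 88.5 CPM with BRM014, against 37.1 and 38.7 CPM with DMSO. They did not move together: COL1A1 stood at 84.8 and 86.6 CPM with BRM014, against 10.9 and 8.42 CPM with DMSO (log2 fold change 3.17 ± 0.14, higher), and PDGFRB at 1.06 and 0.314 CPM with BRM014, against 25.2 and 29.1 CPM with DMSO (-4.83 ± 0.26, lower), most of the sum with DMSO. The part of these markers in the results below was not tested.

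Plasma protein genes fell broadly in HepG2 after 24 h of BRM014. Of the 45 genes, 40 passed the filter on low counts and were tested, 33 were lower with BRM014 at an adjusted p under 0.05 in edgeR's quasi-likelihood test, 1 was higher (FGG) and 6 were not called (HPX, FGA, FGB, F12, PROS1 and C5). Among all 13349 genes tested in the same fit, 22.8% were called lower and 19.3% higher. The median log2 fold change of the 40 was -1.34, beside -0.01 over all genes tested. A fall of more than 2-fold was called for 26 of the 40, beside 10.5% of all genes, one of more than 4-fold for 12, beside 4.61%, and one of more than 8-fold for 5, beside 2.3%. FABP1 and ITIH1 reached the level of the filter in both DMSO libraries but in only 1 of the 2 BRM014 libraries. Their BRM014 libraries alone would not have brought them into the test. Without FABP1 and ITIH1, 31 of the other 38 tested genes were lower and 1 was higher, with a median log2 fold change of -1.20. The remaining 5 of the 45 genes were too low to test. F9 (factor IX) had 0 counts in all 4 HepG2 libraries, each of which allows up to 3 counts, and F13B, PLG, ITIH4 and FETUB stayed at or under 0.749 CPM in each library. In bulk RNA, fewer cells making a transcript and less of it per cell cannot be told apart.

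**Figure D1:**
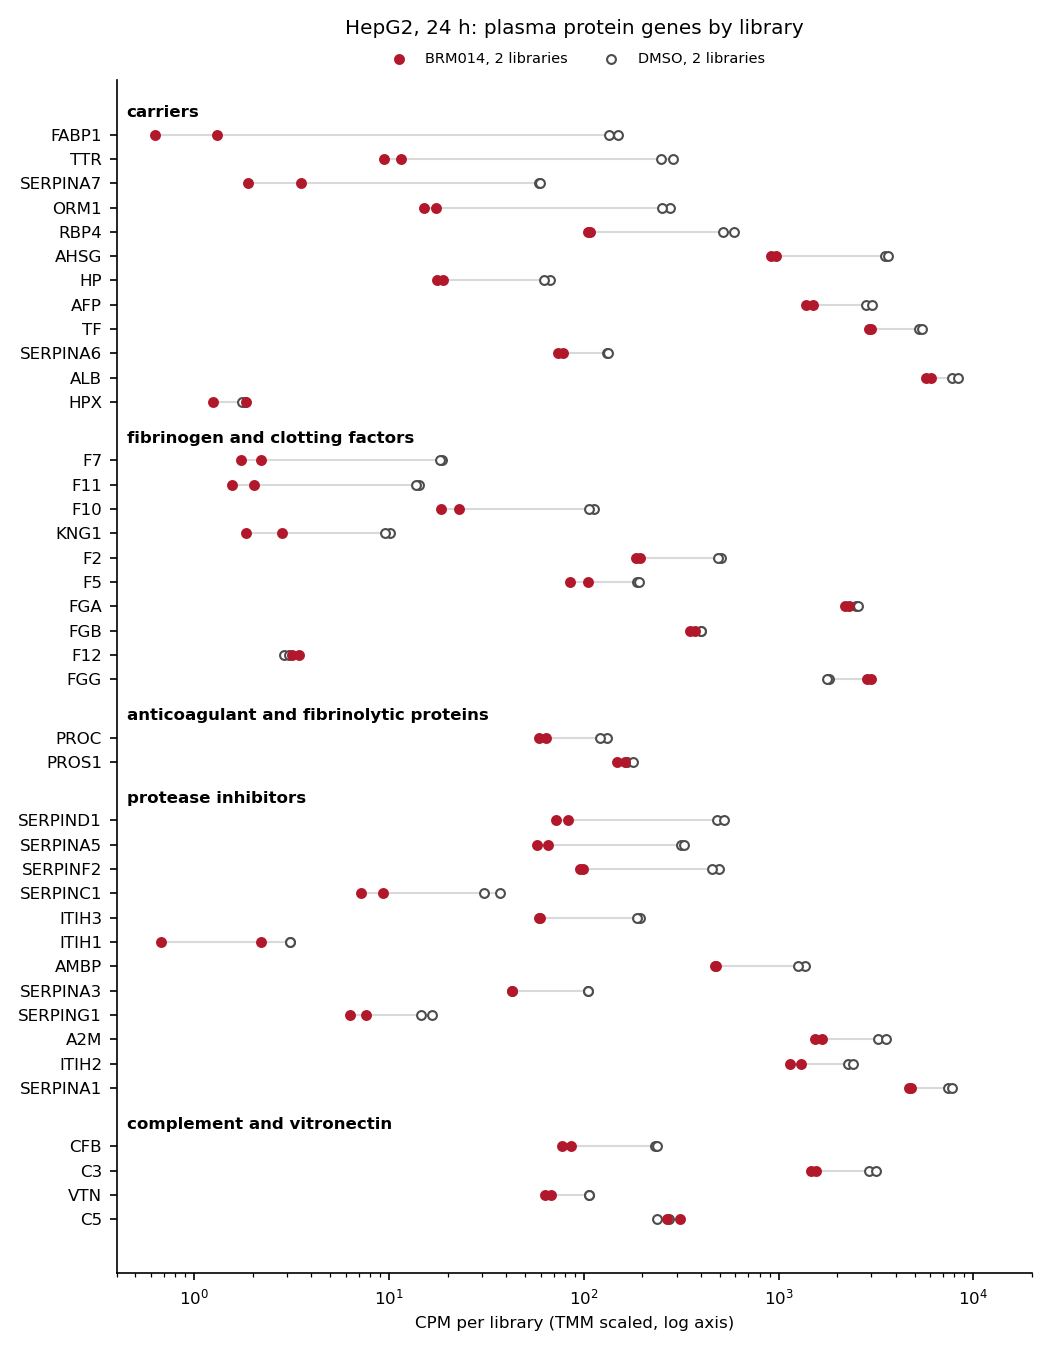
Level of the 40 tested plasma protein genes in each HepG2 library, in CPM on a log axis, grouped by role; filled red points are the 2 BRM014 libraries, open points the 2 DMSO libraries, and grey lines join the lowest and highest library. FABP1, TTR, SERPINA7 and ORM1 lie furthest left of their DMSO points, while FGG is to the right of them.

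As a whole the 45 genes held 2.81% and 2.63% of all TPM (a per-length scale of equal total in each library) in the BRM014 libraries, against 4.14% and 4.52% in the DMSO libraries. ALB, SERPINA1 and TF were the highest 3 genes in all 4 libraries, and together made up 58.5% and 58.7% of the plasma protein TPM with BRM014, against 51.4% and 53.4% with DMSO. These 3 fell 1.37-fold, 1.61-fold and 1.81-fold. By DMSO level, the 12 tested genes over 1000 TPM had a median log2 fold change of -0.97 with 1 of them lower by more than 4-fold (RBP4), and the 13 genes between 100 and 1000 TPM had a median of -2.29 with 7 lower by more than 4-fold. Genes between 10 and 100 TPM (11) had a median of -1.29, and the 4 below 10 TPM a median of -0.87. This grouping uses the DMSO libraries that also enter each fold change, and is given as a description.

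The 4 largest falls were all among the carriers. Of the 12 genes, 11 were lower with BRM014, beside 22.8% of all genes tested, and HPX was not called. The median log2 fold change was -1.86. Without FABP1, which reached the level of the filter in only 1 BRM014 library, 10 of the other 11 were lower, with a median of -1.80. FABP1, the liver fatty acid binding protein, had 1.30 and 0.628 CPM (27 and 2 counts) in the BRM014 libraries, against 149.6 and 134 CPM in the DMSO libraries. The second BRM014 value lay under the floor of 3 counts, 0.982 CPM in that library, so the size of the FABP1 fall is uncertain. TTR, transthyretin, which carries thyroxine and the retinol binding protein complex, had 11.5 and 9.41 CPM in the BRM014 libraries, against 286 and 250.05 CPM in the DMSO libraries. SERPINA7, thyroxine-binding globulin, had 3.53 and 1.88 CPM in the BRM014 libraries, against 58.8 and 59.6 CPM in the DMSO libraries. In each of these genes both BRM014 libraries lay far below both DMSO libraries, by a log2 fold change of -6.86 ± 0.19 for FABP1 (edgeR adjusted p = 1.14e-13), -4.60 ± 0.13 for TTR (adjusted p = 1.42e-13) and -4.19 ± 0.18 for SERPINA7 (adjusted p = 1.52e-11). ORM1, orosomucoid 1 (alpha-1-acid glycoprotein), an acute phase carrier of basic drugs, had 17.4 and 15.1 CPM with BRM014, against 278 and 252 CPM with DMSO (log2 fold change -3.98 ± 0.12, edgeR adjusted p = 1.94e-13). ORM1 has a near-identical neighbour, ORM2, at 11.7 and 11.9 CPM with BRM014, against 183 and 179.5 CPM with DMSO, and reads may be split between them, so the fall is better read for the pair. TTR and SERPINA7, both carriers of thyroid hormone, fell 24.2-fold and 18.2-fold, whereas ALB, which binds the same hormone with low affinity, fell 1.37-fold.

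The most abundant carriers changed less. ALB, serum albumin, had 6086 and 5699 CPM in the BRM014 libraries, against 7749 and 8359 CPM in the DMSO libraries, a log2 fold change of -0.45 ± 0.087 (edgeR adjusted p = 0.000516). TF, transferrin, the iron carrier, had 2990.01 and 2927 CPM in the BRM014 libraries, against 5285 and 5446 CPM in the DMSO libraries, a log2 fold change of -0.86 ± 0.084 (edgeR adjusted p = 3.52e-07). AFP, alpha-fetoprotein, the fetal counterpart of albumin, had 1500.3 and 1381 CPM with BRM014, against 2815 and 3023 CPM with DMSO (log2 fold change -1.02 ± 0.088). The 4 libraries separated by treatment in each of these genes, and the ratio of AFP to ALB in TPM was 0.235 and 0.240 with BRM014, against 0.376 and 0.358 with DMSO. Between these extremes came RBP4, the plasma retinol carrier (-2.37), AHSG, fetuin-A, an inhibitor of mineral deposition (-1.92), HP, haptoglobin, which binds free hemoglobin (-1.80), and SERPINA6, the cortisol carrier transcortin (-0.82), all values being log2 fold changes. HP overlaps TXNL4B and RBP4 overlaps FFAR4, each on the opposite strand, and TF overlaps SRPRB on the same strand. HPX, hemopexin, the heme carrier, was low throughout, at 1.84 and 1.26 CPM with BRM014, against 1.82 and 1.77 CPM with DMSO, and the groups overlapped.

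The stretch upstream of the start site is shown for the carrier that fell most and the one that is most abundant. Both hold a match to the core of an HNF1 site and to a C/EBP site. The part of these matches in the fold changes was not tested. Each sequence gives the 250 bases before the RefSeq start (GRCh38.p14), 5′ to 3′ on the strand of the gene, and capitals mark matches to the motifs searched. The FABP1 window is chr2:88128063-88128312, minus strand, and the ALB window is chr4:73404037-73404286, plus strand.
FABP1: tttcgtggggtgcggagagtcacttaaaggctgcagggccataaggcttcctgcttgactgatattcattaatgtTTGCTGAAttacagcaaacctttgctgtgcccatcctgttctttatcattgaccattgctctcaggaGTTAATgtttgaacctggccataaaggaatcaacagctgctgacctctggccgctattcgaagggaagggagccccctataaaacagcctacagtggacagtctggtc
ALB: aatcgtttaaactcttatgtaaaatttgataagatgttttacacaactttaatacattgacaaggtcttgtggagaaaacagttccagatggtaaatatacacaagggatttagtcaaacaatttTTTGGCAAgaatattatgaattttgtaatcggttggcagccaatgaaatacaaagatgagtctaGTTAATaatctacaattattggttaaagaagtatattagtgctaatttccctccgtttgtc
In FABP1 the HNF1 core lies 108 to 103 bases before the start and the C/EBP match 175 to 168 bases before it. In ALB they lie 61 to 56 and 125 to 118 bases before the start.

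**Figure D2:**
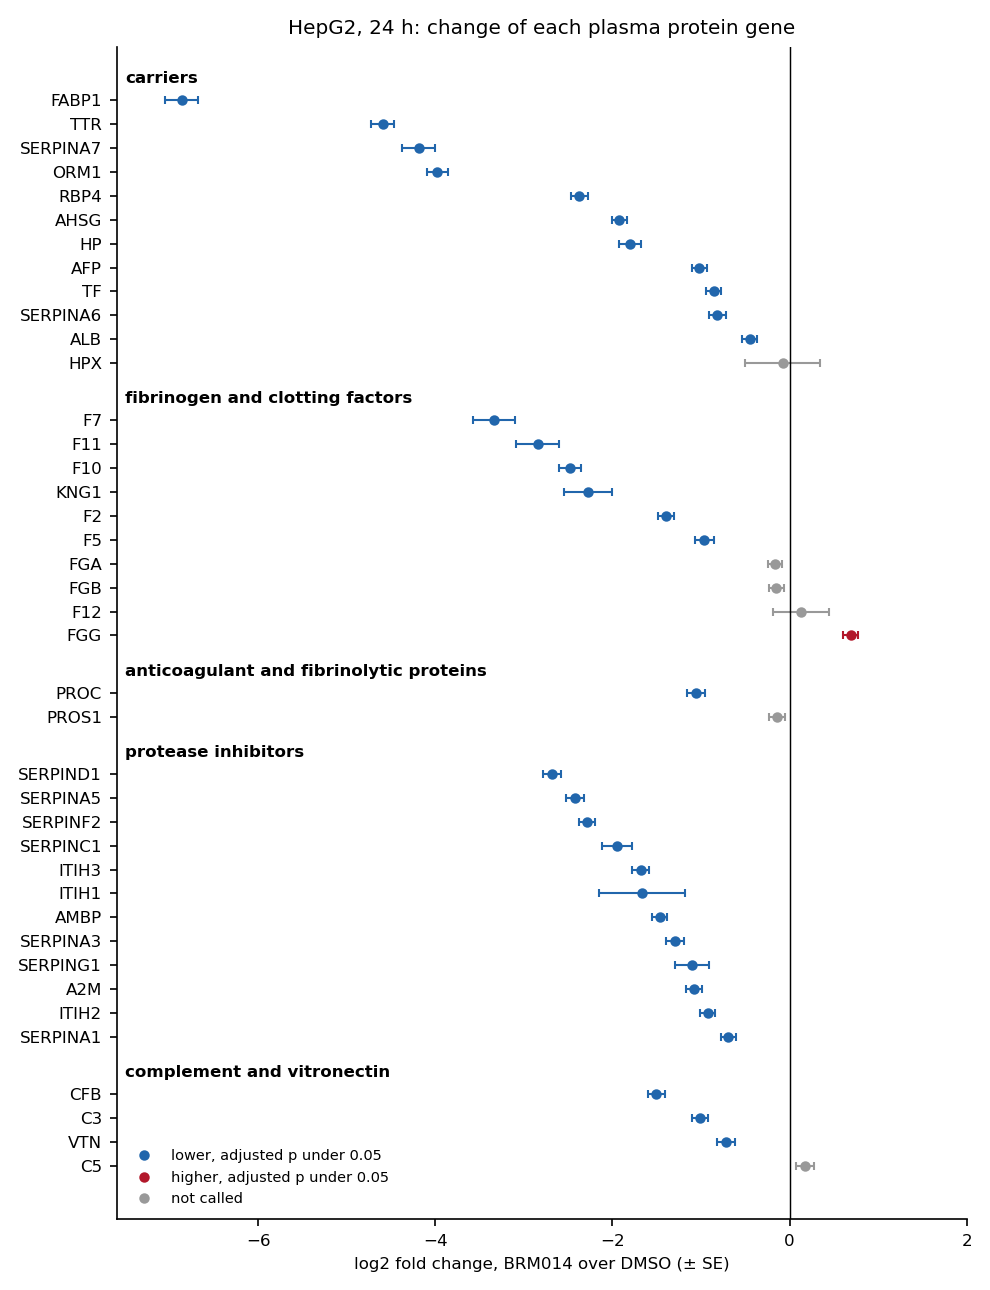
Log2 fold change (BRM014 over DMSO, points, with standard errors as bars) of the 40 tested plasma protein genes in HepG2, ordered within each role; blue marks genes lower and red genes higher at an adjusted p under 0.05, grey those not called. All 12 tested protease inhibitors lie below 0, and FGG, at 0.69, is the single red point.

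Of the fibrinogen chains, FGG rose with BRM014 and the other two did not pass the test. FGA, FGB and FGG encode the alpha, beta and gamma chains, which assemble in equal numbers into fibrinogen, the precursor of the fibrin clot. FGG had 2966 and 2835 CPM in the BRM014 libraries, against 1824 and 1775 CPM in the DMSO libraries. Both BRM014 libraries exceeded both DMSO libraries, with a log2 fold change of 0.69 ± 0.084 (edgeR adjusted p = 4.52e-06). FGA had 2306 and 2197 CPM in the BRM014 libraries, against 2489 and 2559 CPM in the DMSO libraries (log2 fold change -0.16 ± 0.084, edgeR adjusted p = 0.129). FGB had 371 and 349.9 CPM in the BRM014 libraries, against 402 and 399 CPM in the DMSO libraries (log2 fold change -0.15 ± 0.085, edgeR adjusted p = 0.177). For FGA and FGB the BRM014 values lay slightly below the DMSO values without overlap, but neither difference passed the test.

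The balance of the chains differed accordingly. On the per-length TPM scale, FGG stood at 2845 and 2599 TPM with BRM014, against 1485 and 1545 TPM with DMSO. FGA stood at 1605 and 1467 TPM with BRM014, against 1476 and 1622 TPM with DMSO, and FGB at 374 and 321 TPM, against 393 and 381 TPM with DMSO. The ratio of FGG to FGA, which does not depend on how libraries are scaled, was 1.77 in both BRM014 libraries, against 1.01 and 0.953 in the DMSO libraries. FGG made up 59.0% and 59.2% of the summed fibrinogen TPM with BRM014, against 44.3% and 43.5% with DMSO, and FGB 7.76% and 7.32%, against 11.7% and 10.7%. Among the 45 genes FGG had rank 4 by TPM in both BRM014 libraries, against ranks 7 and 8 in the DMSO libraries.

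**Figure D3:**
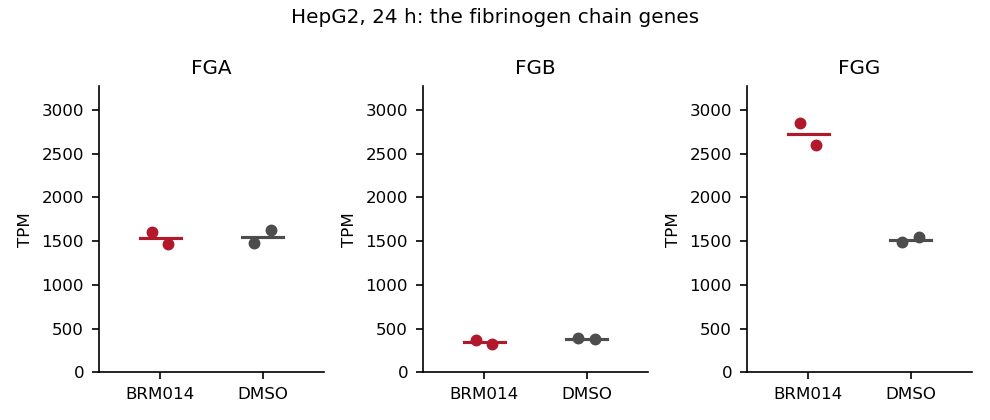
TPM of the fibrinogen chain genes in each HepG2 library (points; short lines are means of the 2 libraries), with BRM014 left of DMSO and a common axis from 0. FGG is higher in both BRM014 libraries, while the FGA points overlap between treatments on this scale and the FGB points lie slightly lower with BRM014.

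The fibrinogen genes lie side by side on chromosome 4 in the order FGB (chr4:154563011-154572807, plus strand), FGA (chr4:154583126-154590742, minus strand) and FGG (chr4:154604134-154612967, minus strand; hg38, GENCODE v44). Their upstream windows, in the same format as above, are given since the neighbours moved differently; FGA and FGB were added after their values had been seen. They are chr4:154612657-154612906, minus strand, for FGG, chr4:154590743-154590992, minus strand, for FGA, and chr4:154562730-154562979, plus strand, for FGB, where 1 of 2 RefSeq starts is shown.
FGG: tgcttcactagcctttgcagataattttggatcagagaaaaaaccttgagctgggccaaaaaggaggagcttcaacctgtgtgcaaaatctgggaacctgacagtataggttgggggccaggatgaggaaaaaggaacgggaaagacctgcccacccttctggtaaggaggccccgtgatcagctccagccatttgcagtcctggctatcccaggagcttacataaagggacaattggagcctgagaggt
FGA: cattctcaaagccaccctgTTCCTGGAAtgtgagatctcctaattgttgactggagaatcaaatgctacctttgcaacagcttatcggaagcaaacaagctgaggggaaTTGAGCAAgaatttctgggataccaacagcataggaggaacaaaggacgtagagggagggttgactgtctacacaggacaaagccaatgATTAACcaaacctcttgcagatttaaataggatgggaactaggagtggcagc
FGB: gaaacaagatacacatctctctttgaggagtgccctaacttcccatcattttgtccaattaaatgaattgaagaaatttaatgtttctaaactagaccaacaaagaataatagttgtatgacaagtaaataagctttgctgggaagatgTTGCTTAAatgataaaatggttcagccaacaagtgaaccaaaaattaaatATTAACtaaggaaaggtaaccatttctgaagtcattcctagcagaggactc
The FGA window held an HNF1 core 52 to 47 bases before the start, a C/EBP match and a STAT3 match, and the FGB window an HNF1 core 51 to 46 bases before the start and a C/EBP match. None of the 6 motifs searched matched in the FGG window, which says only that these letters are not in those 250 bases.

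Most enzymes and cofactors of clotting fell. Of the 12 genes in the group with the fibrinogen chains, 10 were tested. Of these, 6 were lower, 1 was higher and 3 were not called, beside 22.8% lower and 19.3% higher of all genes tested. The median log2 fold change was -1.18. F7, factor VII, which starts clotting with tissue factor, had 1.74 and 2.20 CPM in the BRM014 libraries, against 18.7 and 18.3 CPM in the DMSO libraries. F11, factor XI, of the contact pathway, had 2.03 and 1.57 CPM in the BRM014 libraries, against 14.3 and 13.8 CPM in the DMSO libraries. F10, factor X, where both branches of the cascade meet, had 18.4 and 22.9 CPM in the BRM014 libraries, against 113 and 106 CPM in the DMSO libraries. KNG1, kininogen, the precursor of bradykinin, had 1.84 and 2.82 CPM with BRM014, against 10.2 and 9.58 CPM with DMSO. In all 4 genes the treatments were well apart, with log2 fold changes of -3.34 ± 0.23 for F7 (edgeR adjusted p = 5.51e-09), -2.85 ± 0.25 for F11 (7.25e-08), -2.48 ± 0.13 for F10 (8.93e-11) and -2.27 ± 0.27 for KNG1 (4.03e-06). F2, prothrombin, which thrombin is cut from, fell 2.63-fold, and F5, factor V, the cofactor of factor Xa, fell 1.95-fold. F12, factor XII, was low, at 3.19 and 3.45 CPM with BRM014, against 2.89 and 3.05 CPM with DMSO, and not called; its locus overlaps GRK6 on the opposite strand, and no label states whether counting used strand.

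Among the anticoagulant and fibrinolytic genes, PROC, protein C, which inactivates factors Va and VIIIa, had 58.96 and 63.7 CPM in the BRM014 libraries, against 131 and 121 CPM in the DMSO libraries (log2 fold change -1.06 ± 0.10, edgeR adjusted p = 3.06e-07). PROS1, the cofactor protein S, had 163 and 148 CPM with BRM014, against 166 and 179 CPM with DMSO, a difference that was not called (log2 fold change -0.14 ± 0.092, adjusted p = 0.239). PROS1 shares sequence with a pseudogene, so its counts are less certain. PLG, plasminogen, was below the filter. Of the 6 vitamin K-dependent genes on the list (F2, F7, F9, F10, PROC and PROS1), 5 were tested and 4 fell, beside 22.8% of all genes tested. The enzyme that carboxylates these proteins, GGCX, had 41.4 and 41.1 CPM with BRM014, against 70.8 and 71.9 CPM with DMSO (log2 fold change -0.79 ± 0.11), and VKORC1, which recycles the vitamin, had 75.6 and 88.5 CPM with BRM014, against 129.99 and 109 CPM with DMSO (log2 fold change -0.57 ± 0.11).

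All 12 tested protease inhibitors were lower with BRM014, beside 22.8% of all genes tested, with a median log2 fold change of -1.57. Of them, 10 fell more than 2-fold, beside 10.5% of all genes. Without ITIH1, which reached the level of the filter in only 1 BRM014 library, the other 11 were all lower, with a median of -1.47. SERPIND1, heparin cofactor II, a thrombin inhibitor, had 82.6 and 72.2 CPM in the BRM014 libraries, against 484 and 526 CPM in the DMSO libraries. Its locus overlaps PI4KA on the opposite strand. SERPINA5, protein C inhibitor, had 57.3 and 65.3 CPM in the BRM014 libraries, against 315 and 328 CPM in the DMSO libraries. SERPINF2, alpha-2-antiplasmin, the main inhibitor of plasmin, had 95.6 and 99.5 CPM in the BRM014 libraries, against 493 and 457 CPM in the DMSO libraries. The libraries did not overlap in any of them, and the log2 fold changes were -2.68 ± 0.10 for SERPIND1 (edgeR adjusted p = 2.4e-12), -2.42 ± 0.10 for SERPINA5 (7.32e-12) and -2.29 ± 0.094 for SERPINF2 (6.84e-12). SERPINC1, antithrombin, the chief inhibitor of thrombin and factor Xa, had 9.33 and 7.22 CPM with BRM014, against 30.6 and 37.4 CPM with DMSO (log2 fold change -1.95 ± 0.17, edgeR adjusted p = 8.44e-08). Counting the 2 hormone carriers of the same protein family, 9 of 9 serpin genes on the list were lower, beside 22.8% of all genes. Their median was -1.95 on the log2 scale.

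The most abundant inhibitor had the smallest fold change of the 12. SERPINA1, alpha-1-antitrypsin, which protects the lung from neutrophil elastase, had 4659 and 4785 CPM in the BRM014 libraries, against 7424 and 7806 CPM in the DMSO libraries, a log2 fold change of -0.69 ± 0.085 (edgeR adjusted p = 5.23e-06). A2M, alpha-2-macroglobulin, a trap for many proteases, had 1675 and 1542 CPM in the BRM014 libraries, against 3232 and 3572 CPM in the DMSO libraries (log2 fold change -1.08 ± 0.090). SERPINA3, alpha-1-antichymotrypsin, fell 2.45-fold and SERPING1, the C1 inhibitor, 2.15-fold. In the inter-alpha-trypsin inhibitor family, AMBP, the precursor of its light chain bikunin, had 475 and 471 CPM in the BRM014 libraries, against 1365 and 1252 CPM in the DMSO libraries (log2 fold change -1.47 ± 0.087). ITIH2, a heavy chain, had 1300.1 and 1150.5 CPM with BRM014, against 2267 and 2397 CPM with DMSO (log2 fold change -0.93 ± 0.090), and the TPM ratio of ITIH2 to AMBP was 1.17 and 1.02 with BRM014, against 0.694 and 0.806 with DMSO. ITIH3 fell 3.21-fold. ITIH1 had 0.677 and 2.20 CPM with BRM014, against 3.10 and 3.11 CPM with DMSO. It rested on 14 and 7 counts with BRM014, against 29 and 51 with DMSO. Its log2 fold change was -1.67 ± 0.49 (edgeR adjusted p = 0.0107). With DESeq2's Wald test ITIH1 was not called (log2 fold change -1.38, adjusted p = 0.149). The call was also lost without the first BRM014 library (log2 fold change -0.50) or the second DMSO library (-1.56).

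The window before the SERPINA1 start is shown as the one of the most abundant inhibitor (chr14:94388603-94388852, minus strand; 1 of 2 RefSeq starts). It holds an HNF1 core 76 to 71 bases and an HNF4A match 121 to 115 bases before the start.
SERPINA1: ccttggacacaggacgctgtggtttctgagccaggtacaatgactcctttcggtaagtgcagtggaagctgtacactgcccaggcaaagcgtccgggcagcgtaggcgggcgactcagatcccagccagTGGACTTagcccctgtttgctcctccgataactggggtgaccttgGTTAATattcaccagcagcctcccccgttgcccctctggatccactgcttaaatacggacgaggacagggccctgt

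Of the 4 genes for complement and vitronectin, 3 fell, beside 22.8% of all genes tested, and the median log2 fold change was -0.86. C3, the central component, had 1549 and 1471 CPM in the BRM014 libraries, against 2921 and 3165 CPM in the DMSO libraries (log2 fold change -1.01 ± 0.087, edgeR adjusted p = 6.9e-08). CFB, factor B of the alternative pathway, had 85.7 and 77.2 CPM with BRM014, against 231 and 238 CPM with DMSO (log2 fold change -1.51 ± 0.095, edgeR adjusted p = 1.49e-09). VTN, vitronectin, which binds terminal complement and the inhibitor PAI-1, had 63.5 and 67.8 CPM with BRM014, against 107 and 107 CPM with DMSO (log2 fold change -0.72 ± 0.10). C5, the source of the anaphylatoxin C5a, had 311 and 267 CPM with BRM014, against 239 and 275 CPM with DMSO, with overlapping groups and no call (log2 fold change 0.18 ± 0.10, edgeR adjusted p = 0.17). It was called higher without the second, shallow BRM014 library (log2 fold change 0.28, adjusted p = 0.0490) and when libraries were scaled by their totals alone (0.29, adjusted p = 0.0235). C5 overlaps CNTRL and VTN overlaps SARM1, each on the opposite strand, while C3 overlaps GPR108 and CFB overlaps C2 on the same strand. CFB and VTN also each overlap an unnamed protein-coding gene on the same strand.

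Liver plasma proteins outside the 45 moved the same way in most cases. Of 17 other complement genes, 14 were tested and all 14 were lower, beside 22.8% of all genes tested. Their median log2 fold change was -1.20. Of these 14, C8G and MBL2 passed the filter through their DMSO libraries only, so that their inclusion already required a difference. MASP1 and MASP2 reached its level in both DMSO libraries but not in both BRM014 libraries. Without these 4, the other 10 had a median of -1.08. MASP1, a protease of the lectin pathway, had 0.918 and 0 CPM (19 and 0 counts) with BRM014, against 28.2 and 28.7 CPM with DMSO (log2 fold change -5.17 ± 0.29). MBL2, mannose-binding lectin, had 0.483 and 0.628 CPM (10 and 2 counts) with BRM014, against 7.49 and 7.81 CPM with DMSO (-3.90 ± 0.36). In both genes the second BRM014 value lay under the floor of 3 counts, so the sizes of these falls are uncertain. C4A and C4B also fell, but are near-identical copies whose reads cannot be assigned with certainty. Of 29 other plasma protein genes, 17 were tested, 15 were lower and LRG1 was higher, beside 22.8% lower and 19.3% higher of all genes. Their median was -2.18. HPR and PROZ passed through DMSO only, and the other 15 had a median of -1.80. IGFBP1, an insulin-like growth factor carrier, had 82.8 and 85.05 CPM in the BRM014 libraries, against 2113 and 2235 CPM in the DMSO libraries (log2 fold change -4.70 ± 0.10, edgeR adjusted p = 4.87e-15). AGT, angiotensinogen, had 104 and 115 CPM with BRM014, against 1119 and 1091 CPM with DMSO (log2 fold change -3.35 ± 0.10), and CPB2, an inhibitor of fibrinolysis, had 11.7 and 10.04 CPM with BRM014, against 102 and 105 CPM with DMSO (log2 fold change -3.20 ± 0.13). LRG1, leucine-rich alpha-2-glycoprotein, had 54.5 and 60.3 CPM with BRM014, against 35.9 and 36.8 CPM with DMSO (log2 fold change 0.64 ± 0.12, edgeR adjusted p = 0.000315).

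Genes that act on these proteins went in both directions. Of 8 genes for processing and export of clotting factors, 4 were lower and 1 higher, beside 22.8% and 19.3% of all genes tested. The 4 were GGCX, VKORC1, MCFD2 and LMAN1, of which LMAN1 and MCFD2 carry factors V and VIII out of the endoplasmic reticulum. FURIN was higher, at 296 and 303 CPM with BRM014, against 117 and 119 CPM with DMSO (log2 fold change 1.34 ± 0.088). FURIN is a proprotein convertase. Of 26 genes of the general secretory pathway, 21 were lower and none was higher, beside 22.8% and 19.3% of all genes tested. Their median log2 fold change was -0.53. The chaperone HSPA5 had 1151 and 1089 CPM with BRM014, against 1747 and 1764 CPM with DMSO (-0.65 ± 0.083). Of 11 genes of interleukin 6 and acute phase signalling, 3 were lower and 4 higher, beside 22.8% and 19.3% of all genes tested. SOCS3, among the 3 lower, passed the filter through its DMSO libraries only. Of the other 10, 2 were lower and 4 higher. IL6R, the receptor, had 32.8 and 32.95 CPM with BRM014, against 64.4 and 72.1 CPM with DMSO (log2 fold change -1.06 ± 0.12), JAK2 had 17.98 and 12.9 CPM with BRM014, against 6.63 and 5.62 CPM with DMSO (1.43 ± 0.21) and STAT3 had 202 and 199 CPM with BRM014, against 162 and 165 CPM with DMSO (0.30 ± 0.087). Acute phase genes among the 45, named here from general knowledge and not as a complete list, did not share a direction: FGG was higher, FGA, FGB and HPX were not called, and HP, ORM1, SERPINA1, SERPINA3, C3 and CFB were lower.

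Genes that lie next to each other changed by different amounts. Within 624 kb of chromosome 14, SERPINA10 (-3.01), SERPINA11 (-3.47) and SERPINA4 (-3.66) fell, as did SERPINA6 (-0.82), SERPINA1 (-0.69), SERPINA5 (-2.42) and SERPINA3 (-1.29), in log2 fold changes, and the flanking gene PPP4R4 was not called. SERPINA4 and SERPINA5 overlap in the annotation and may share reads. On chromosome 13, F7 and F10 lie between MCF2L (-1.73) and PROZ (-5.30, tested through its DMSO libraries only), and the next genes, PCID2 and CUL4A, were not called. Beside the fibrinogen genes, PLRG1, which encodes a spliceosome protein, was higher by 0.27 ± 0.10 on the log2 scale (edgeR adjusted p = 0.0461). HPR, a near copy of HP next to it on chromosome 16, had 0.242 and 0.314 CPM with BRM014, against 16.05 and 16.3 CPM with DMSO; it too was tested through its DMSO libraries only, and reads may be split between the pair.

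**Figure D4:**
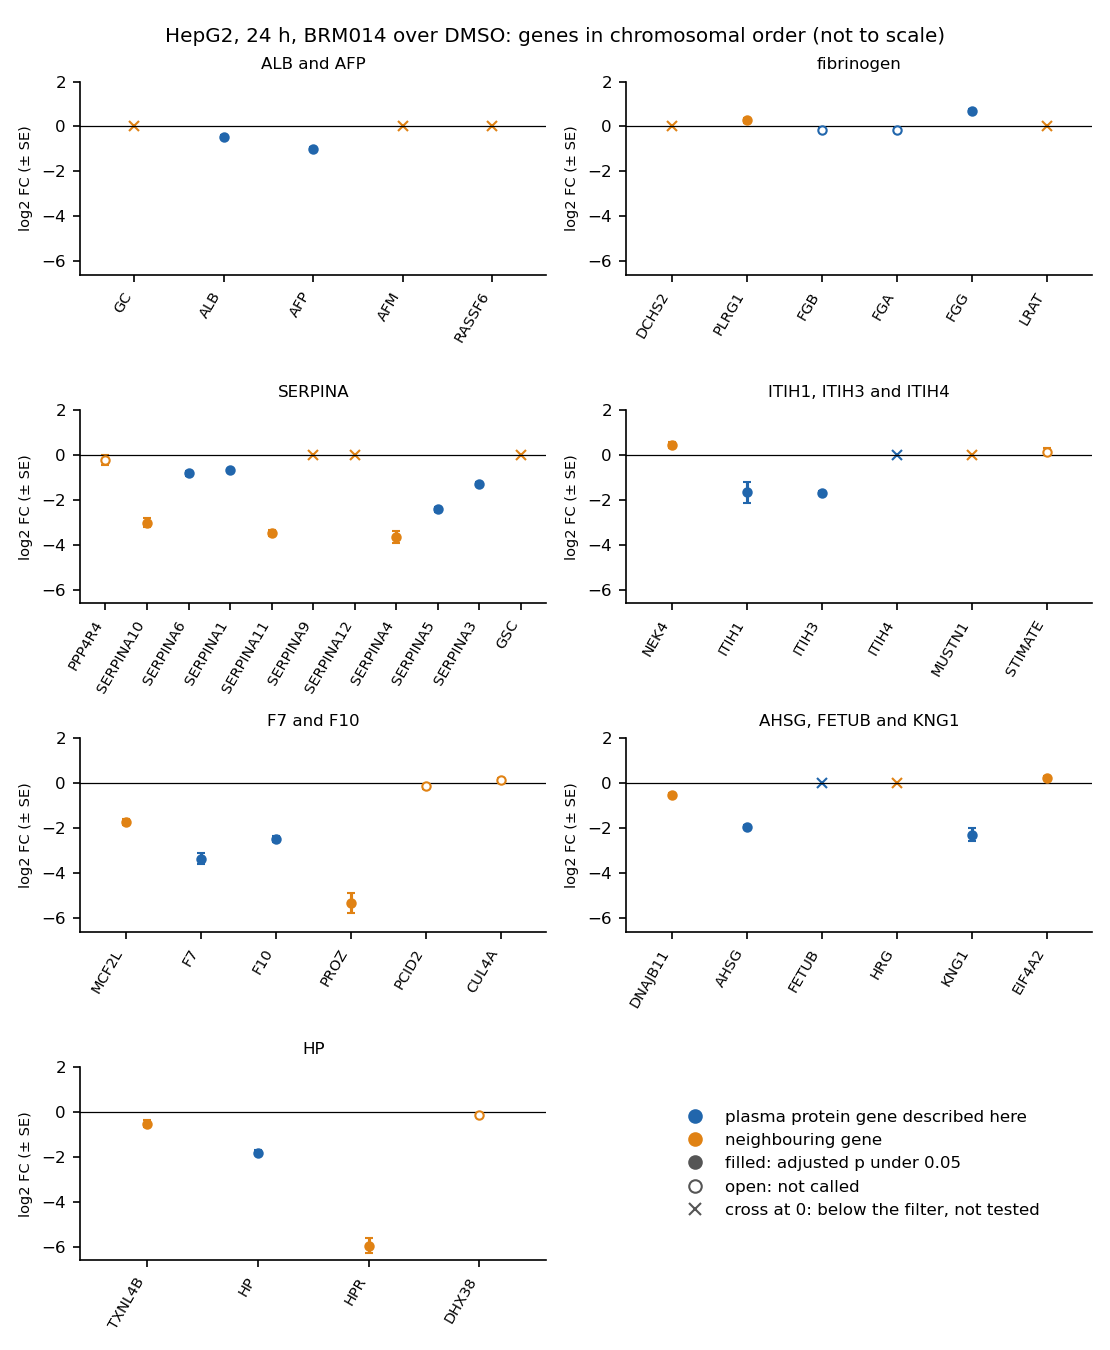
Log2 fold change (BRM014 over DMSO, with standard errors) of plasma protein genes (blue) and their neighbours (orange) in chromosomal order at 7 loci in HepG2; filled points passed an adjusted p under 0.05, open points did not, and crosses at 0 mark genes below the filter. Neighbours differ in size of change, as SERPINA1 at -0.69 beside SERPINA11 at -3.47. At the fibrinogen locus FGG and PLRG1 were higher, while FGA and FGB were not called.

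Upstream windows of 250 bases were available for 37 of the 45 genes in the RefSeq table. Motifs were searched on both strands, and no match shown overlaps another. The HNF1 core (GTTAAT) was found in 11 of 37 windows (29.7%), beside 6.37% of all 27305 windows of the same length. The C/EBP site (TTGCNNAA) was found in 11 (29.7%, beside 9.20%), the STAT3 site (TTCNNNGAA) in 9 (24.3%, beside 6.80%), the HNF4A site (AAGTCCA) in 3 (8.11%, beside 2.85%), the FOXA site (TGTTTAC) in 3 (8.11%, beside 3.01%) and the AP-1 site (TGANTCA) in 1 (2.70%, beside 6.74%). The 10 tested genes with the HNF1 core had a median log2 fold change of -0.75 and ranged between -6.86 and 0.18. The 22 tested genes without it had a median of -1.59 and ranged between -3.98 and 0.69. Medians with and without a match were -1.02 and -1.40 for C/EBP, -0.82 and -1.40 for both STAT3 and FOXA, and -1.92 and -1.29 for HNF4A. The 1 tested gene with an AP-1 match stood at -2.37, beside a median of -1.29 without it. Whether a match goes with the size of a change was not tested. A match describes the letters of the window and not a bound site.

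In the B lymphoblastoid line GM12878 these genes were nearly silent. They held 0.00118% to 0.00181% of counts in the 39 libraries, and 3 to 6 of the 45 exceeded 1 TPM in a library, against 40 in each HepG2 library. RBP4, FABP1, FGA and F7 had 0 counts in all 39, each of which allows up to 3 counts, and 7 genes had a median over 1 CPM. In the BRM014 experiment 11 of the 45 passed the filter, which was applied to its 1 h and 6 h libraries together, and in the panel 15. Differences below therefore rest on few counts.

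SERPIND1, one of the steepest fallers among the inhibitors in HepG2, was also the one gene of the 11 that was lower with BRM014 in GM12878 at 6 h, where 20.1% of all 15183 genes were lower and 18.4% higher. It had 0 and 10 counts (0 and 0.567 CPM) with BRM014 and vehicle, against 32 and 32 counts (2.14 and 1.43 CPM) with DMSO and vehicle, a log2 fold change of -2.52 ± 0.55 (edgeR adjusted p = 0.000443). The gene lies inside PI4KA on the opposite strand, so reads of that gene cannot be told apart unless strand was used.

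Dexamethasone moved the same gene. With Dex after DMSO, SERPIND1 had 7 and 10 counts, against the same 32 and 32 with vehicle (log2 fold change -1.64 ± 0.50, edgeR adjusted p = 0.0200), and 7.53% of all genes were lower. In the panel, which has controls of its own, it had 6 and 10 counts with Dex, against 57 and 40 with DMSO and 20 and 35 with PBS (log2 fold change -2.06 ± 0.36, edgeR adjusted p = 2.55e-05; 12.7% of all genes lower). ITIH1 went the other way, with 21 and 15 counts with Dex after DMSO, against 5 and 7 with vehicle (log2 fold change 1.83 ± 0.59, edgeR adjusted p = 0.0311; 8.06% of all genes higher). In that experiment ITIH1 passed the filter through the Dex libraries alone; with no filter its adjusted p was 0.0440. In the panel ITIH1 had 23 and 34 counts with Dex, against 12 and 9 with DMSO and 2 and 6 with PBS (log2 fold change 2.23 ± 0.44, edgeR adjusted p = 0.000167; 13% of all genes higher). SERPINF2 was called higher with Dex in the panel alone, at 10 and 9 counts, against 2 and 4 with DMSO and 2 and 1 with PBS (log2 fold change 2.21 ± 0.73, edgeR adjusted p = 0.0229); in the other experiment it was too low to test. The gene passed the panel's filter through the first Dex library alone, and with no filter it was not called (adjusted p = 0.0522). That call was lost without the first DMSO library (adjusted p = 0.0712), the second PBS library (0.0928) or the second Dex library (0.0552). The call on ITIH1 in the first experiment was lost without any 1 of the 4 libraries compared (adjusted p between 0.0955 and 0.191), and that on SERPIND1 without the first Dex library (adjusted p = 0.254) or the first vehicle library (0.134).

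SERPING1, the C1 inhibitor and an interferon-responsive gene, was higher with IFNg. It passed the filter of either experiment through IFNg libraries alone, so that its inclusion already required a difference; with no filter its adjusted p was 0.00332 in the first and 0.000829 in the panel. It had 12 and 12 counts with IFNg after DMSO, against 0 and 0 with vehicle, which is at least 9.94-fold higher against a floor of 3 counts over the group (edgeR adjusted p = 0.00154; 3.47% of all genes higher). The call was lost without the second vehicle library (adjusted p = 0.0518). In the panel it had 3 and 15 counts with IFNg, against 1 and 0 with DMSO and 0 and 0 with PBS, at least 6.69-fold higher than PBS against the same floor (edgeR adjusted p = 0.00251; 7.11% of all genes higher). With BRM014, IFNg gave 3 and 3 counts, against 0 and 1 with BRM014 and vehicle. Without the second IFNg library of the panel SERPING1 was below the filter. The difference between the IFNg responses with and without BRM014 was not called (log2 difference -4.44 ± 2.71, edgeR adjusted p = 0.720), nor was that of Dex on SERPIND1 (2.17 ± 0.85, adjusted p = 0.241). None of the 11 genes was called in either test of such a difference with edgeR; at an unadjusted p under 0.05 there were 0 for IFNg and 1 for Dex, DESeq2 also called 0, and 0.198% and 2.76% of all genes were called.

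**Figure D5:**
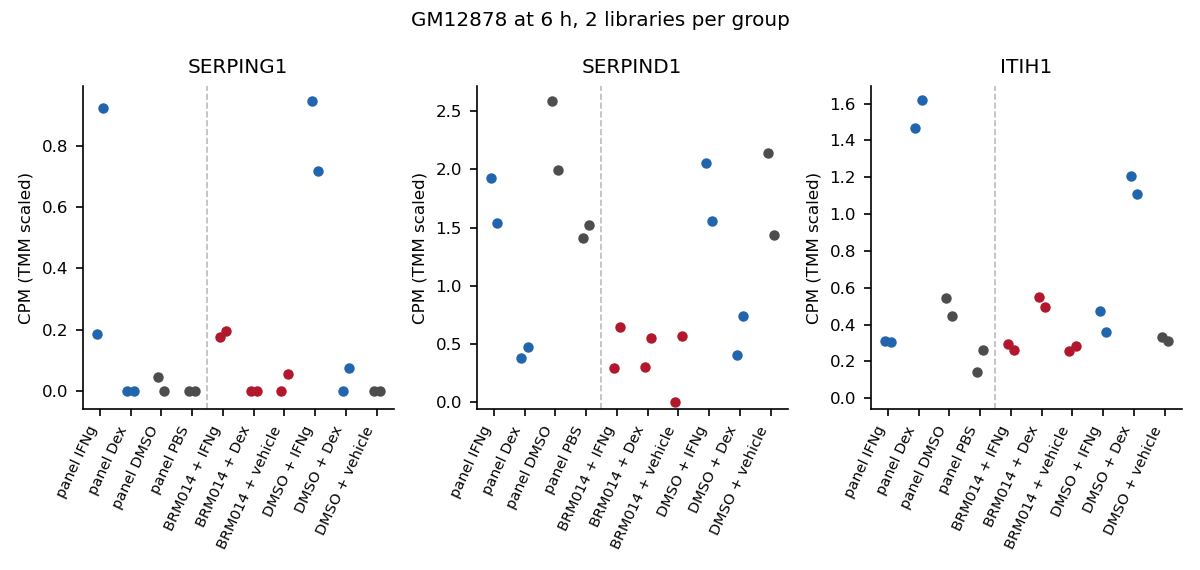
CPM of SERPING1, SERPIND1 and ITIH1 in GM12878 at 6 h (points, 2 libraries a group), with the stimulus panel left and the pretreatment experiment right of the dashed line; red marks BRM014 groups, blue stimulated groups without BRM014 and grey their controls. SERPING1 is highest with IFNg, SERPIND1 is low in the Dex and BRM014 groups, and ITIH1 is highest with Dex.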

How the data were processed

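Stranded, poly(A)-selected libraries were sequenced as paired reads, per the labels' protocols. STAR, RSEM and genome build hg38 are named in the submitters' processing notes; the annotation release, versions and strand setting are not given in the sources used here. The authors deposited RSEM expected counts and TPM per gene and library. Expected counts were rounded, filtered with filterByExpr (13349 genes kept in HepG2, where 0.746 CPM was needed in 2 libraries), scaled by TMM and tested with edgeR 4.0.16 (R 4.3.3; robust quasi-likelihood fit; residual df 2 in HepG2, 12 in the BRM014 experiment and 7 in the panel of GM12878), with Benjamini-Hochberg adjustment over all genes kept and a threshold of 0.05. Standard errors are the log2 fold change over the root of F. DESeq2 1.42.0 was an alternative. Simulated counts were used to check the fit for BRM014 in HepG2, BRM014 in GM12878, IFNg by BRM014 and panel IFNg only. They left out genes with few counts and used a fixed spread. TPM was used to compare or rank genes and to describe shares, ratios, levels and detection by library, and no test used it. Panel stimuli were tested against the average over both vehicle groups (DMSO, PBS). Of the 58780 Ensembl genes, 58207 had a symbol in the name table given here.

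The genes and lists were chosen with earlier results of these data known. Named genes were, for each role, the 4 largest changes among those called and the 2 highest in TPM, up to 4 of each other list by p, all genes of the loci, and those called in GM12878; a few more are named to complete a count. Same-numbered libraries did not deviate together (r of -0.09 in HepG2), so the number was not used as a pairing. No pair of libraries agreed within sampling noise.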

Additional observations from a re-analysis of the deposited data

How the results depend on the processing

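In HepG2 the count of 33 plasma protein genes lower stayed at 32 or 33 under every alternative run: DESeq2 size factors, library totals only, DESeq2's Wald test, no filter, the replicate block and leaving out each library. The count of 1 higher was 2 with library totals only, C5 joining FGG, and 1 to 2 when each library was left out. Library totals only moved the median of all genes by 0.118 on the log2 scale and the split of calls to 3663 higher and 2487 lower, against 2580 and 3037 in the main fit; HPX then turned positive (0.040), and ranged between -0.51 and 0.044 when each library was left out, with no call. Without the first BRM014 library 1673 genes were higher. With the replicate number as a block, 33 genes were lower and 1 higher in HepG2, and no count of plasma protein genes called changed in GM12878. In GM12878, with few counts per gene, calls were less stable. BRM014 gave 1 higher gene with library totals only, against 0. For IFNg the 1 gene higher became 0 with DESeq2, which gave SERPING1 no adjusted p, and ranged between 0 and 1 when each library was left out. For Dex the 1 gene higher became 0 with DESeq2, which gave ITIH1 no adjusted p, and was 0 whichever library was left out, while the 1 lower ranged between 0 and 1. For Dex by BRM014 the count higher ranged between 0 and 1. In the panel, IFNg gave 0 higher with DESeq2 and when other groups were dropped from the fit, where SERPING1 was below the filter, 0 to 1 higher when each library was left out and 0 to 1 lower. Panel Dex gave 1 higher, against 2, with DESeq2, with no filter, when other groups were dropped from the fit, and with DMSO or PBS alone as the control, and 1 to 2 when each library was left out. Over all genes, library totals only gave 4274 higher and 2394 lower for BRM014, 458 and 631 for IFNg, and 877 and 1231 for panel IFNg, against 2795 and 3051, 527 and 478, and 1122 and 750; dropping the other groups gave 234 and 115 for IFNg, and DESeq2 403 lower for panel IFNg and 1348 higher for panel Dex, against 2052. The causes of these changes were not tested. The 3.06 M counts of the second BRM014 library of HepG2 limit genes near 1 CPM to a few counts.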
